A study of Mus musculus with 3 samples.

Results

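A total of 241 autosomal sites carried a glucocorticoid receptor (GR) peak in the lists of both wild-type and GRdim macrophages. These shared sites were chosen by position: the midpoint of a WT peak had to lie less than 200 bp from the midpoint of a GRdim peak on the same chromosome, and each WT peak was paired with its nearest GRdim peak. They made up 23.4% of the 1031 autosomal peaks of the WT list (95% Clopper-Pearson interval 20.8 to 26.1) and 29.5% of the 817 in the GRdim list (26.4 to 32.8). Every pair was one-to-one, so 241 WT peaks met 241 different GRdim peaks. Since a site had to be listed in both libraries, both of its heights had to pass the floor of the lists, and the heights and distances below are a description of the chosen sites with no test.

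GR, the product of Nr3c1, is a nuclear receptor that moves into the nucleus when it binds a glucocorticoid and then attaches to DNA. It binds palindromic elements as a dimer, can also settle on a single arm of such an element, and can reach DNA through other factors such as AP-1 and NF-κB. In macrophages it is best known for restraining inflammatory genes and for inducing a set of anti-inflammatory and metabolic genes. The GRdim receptor carries an amino acid exchange in the loop through which DNA-binding domains meet, made to weaken binding as a dimer.

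GR was mapped by ChIP-seq, the sequencing of DNA fragments pulled down with an antibody against a protein bound to them, in macrophages differentiated from femoral bone marrow of 12-week-old mice. Donors were GRdim mice and GR+/+ littermates (WT), on a BALB/c background after 4 or more generations of back-crossing. Each genotype has 1 ChIP library, made with an antibody against GR (sc-1004), and the values of an input library were not analysed here. The treatment protocol names overnight 1 µM dexamethasone, a synthetic glucocorticoid, and 100 ng/ml LPS, a bacterial endotoxin, for 3 hours, alone or combined, and the labels do not tie either to a ChIP library. Whether each library came from 1 mouse or from pooled marrow is not given. With no replicate, every difference below is one between these 2 libraries. Peak lists hold no expression values, so the macrophage identity of the cells could not be checked against marker genes.

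Heights are the authors' values in RPM (a read number scaled to a library of 1000000 reads). They rise in even steps of 0.0676 RPM in WT and 0.0659 RPM in GRdim. Read as single reads, these steps imply libraries of about 14800000 and 15200000 reads. On that reading the lowest listed peaks hold 15 reads in WT (1.01 RPM) and 16 in GRdim (1.05 RPM). Intervals given with a height ratio are exact 95% intervals from these reads and cover counting error only. They are not adjusted for the number of sites or for naming a site by its ratio, and serve as description. All positions are in mouse build mm9. No site is tied to a gene or a sequence here, because the reference at hand is of another build (GRCm38).

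The shared sites were spread over all 19 autosomes. Chromosome 11 held the most, 26, and chromosome 14 the fewest, 4. Chromosomes 1 and 2 followed with 19 each, chromosome 13 with 17, and chromosomes 16 and 17 with 15 each. As a part of the WT list, shared sites ranged from 13.3% on chromosome 14 (4 of 30 peaks, exact interval 3.76 to 30.7) to 33.3% on chromosomes 15 (12 of 36, 18.6 to 51.0) and 16 (15 of 45, 20.001 to 49.0). As a part of the GRdim list they ranged from 13.8% on chromosome 14 (4 of 29, 3.89 to 31.7) to 41.3% on chromosome 1 (19 of 46, 27.0 to 56.8). The intervals of these chromosomes overlapped widely. Outside the autosomes a single pair met the same limit, chrX:12030194-12030393, where WT stood at 1.22 RPM and GRdim at 1.52 RPM.

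Paired peaks lay almost on top of each other. The distance between midpoints had a median of 23 bp (quartiles 11 and 45, range 0 to 198), and 56 pairs lay within 10 bp. At 2 sites the midpoints were identical. The GRdim midpoint lay to the right of the WT midpoint at 117 sites and to the left at 122, with a median signed offset of -1 bp, so neither library was shifted against the other. Few pairs came near the limit of 200 bp: 38 had distances from 50 to under 100 bp, 11 from 100 to under 150 bp and 5 from 150 to under 200 bp. Beyond the limit, 7 WT peaks had their nearest GRdim peak at 200 to under 500 bp and 3 at 500 to under 1000 bp. Near misses from 200 to under 1000 bp, 10 in all, were thus few beside the 241 pairs under 200 bp. A nearest peak at 1000 to under 5000 bp, a wider range, was found for 19 WT peaks.

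**Figure D1:**
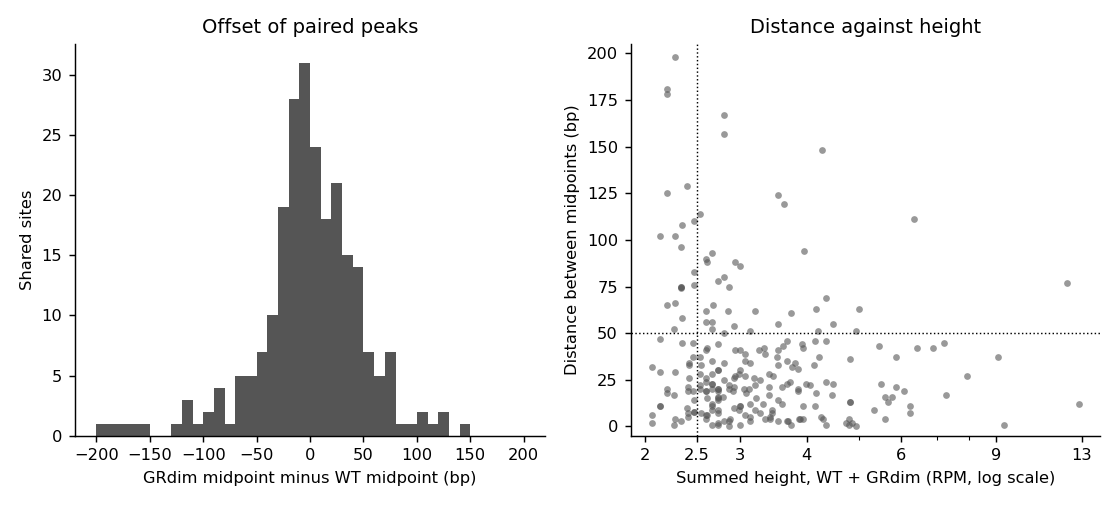
Left, the number of shared sites by the position of the GRdim midpoint relative to the WT midpoint in bins of 10 bp; right, the distance between midpoints in bp against the summed height in RPM (log scale), 1 point a site, with dotted lines at 50 bp and 2.5 RPM. The offsets centre near 0, with a median of -1 bp, and 9 of the 16 distances over 100 bp belong to sites under 2.5 RPM.

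Low sites were placed less exactly than taller ones. Among the 48 sites whose heights summed to less than 2.5 RPM, 29 (60.4%) had midpoints within 50 bp and the median distance was 33.5 bp. Among the 193 taller sites, 159 (82.4%) lay within 50 bp. Of the 16 pairs more than 100 bp apart, 9 belonged to the low class. Above 2.5 RPM the distance changed little with height, with medians of 23 bp at 2.5 to 3 RPM, 22.5 bp at 3 to 4 RPM, 21 bp at 4 to 6 RPM and 27 bp at 6 RPM or more. A low peak rests on fewer reads, and the part that read number has in this difference was not tested.

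The pairs just inside the limit had summed heights of 2.2 to 2.8 RPM, below the median of 2.99 RPM over all shared sites. The widest member was on chr11:72281374-72281573 (198 bp between midpoints, 1.22 RPM in WT and 1.05 in GRdim). It was followed by chr19:58011515-58011714 (181 bp, 1.08 and 1.12 RPM) and chr1:94868723-94868922 (178 bp, 1.08 and 1.12 RPM). The other two were chr1:84314608-84314807 (167 bp, 1.35 and 1.45 RPM) and chr1:139648350-139648549 (157 bp, 1.15 and 1.65 RPM). None of these 5 differed by 1.5-fold in height between the libraries. The nearest pair outside the limit lay 217 bp apart on chr13:51829289-51829488 (1.35 and 1.12 RPM), followed by chr1:165614041-165614240 at 240 bp (1.01 and 1.32 RPM). Next came chr13:42469787-42469986 at 256 bp, where 4.46 RPM in WT stood against 1.19 RPM in GRdim. Had it counted as shared, its 3.75-fold difference would have been the second widest. The last were chr13:53080890-53081089 at 356 bp (1.69 and 1.85 RPM) and chr5:3301231-3301430 at 379 bp (1.82 and 1.25 RPM). The GRdim peak of the chromosome 5 pair is already paired with another WT peak, 0.453 kb away at 3300778 to 3300977.

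Shared sites held more than their number of the listed signal. Their heights summed to 409 RPM in WT, 27.5% of the 1486 RPM of all autosomal WT peaks, and to 421 RPM in GRdim, 35.4% of 1190 RPM. In WT the shared sites ranged from 1.01 to 7.91 RPM with a median of 1.42 RPM (quartiles 1.22 and 1.89). In GRdim they ranged from 1.05 to 7.97 RPM with a median of 1.52 RPM (quartiles 1.25 and 1.98). The summed signal at these sites was thus nearly equal in the 2 libraries. Both heights had to pass the floor, and its part in the share of each list was not tested.

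The tall end of the GRdim list was made up mostly of shared sites, and that of the WT list was not. Of the 10 tallest autosomal GRdim peaks, 9 were shared, against 5 of the 10 tallest autosomal WT peaks. Among the 50 tallest WT peaks 19 were shared, and among the 57 GRdim peaks that ranked 50th or tied with it 36 were. Over the whole autosomal lists, 29.5% of GRdim peaks and 23.4% of WT peaks were shared. The counts at the tall end describe sites chosen by position in both lists and were not tested. Within the 241 shared sites, 14 of the 22 that ranked in the top 20 of WT, ties included, were also among the 20 tallest in GRdim. For the top 100 with ties, 67 sites were common to the 102 of WT and the 106 of GRdim.

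The tallest shared site by summed height was chr5:114395281-114395480, where WT reached 4.87 RPM (72 reads) and GRdim 7.97 RPM (121 reads). It ranked first among autosomal GRdim peaks and tied for eighth in WT, and was 1.64-fold higher in GRdim (counting interval 1.21 to 2.23). The site chr3:146320445-146320644 had the opposite order, with 7.91 RPM (117 reads) in WT, the highest autosomal WT value, and 4.28 RPM (65 reads) in GRdim. It was 1.85-fold higher in WT (1.35 to 2.54), although its midpoints lay 77 bp apart. These 2 sites led the set and leaned to different genotypes.

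At 6 more of the 10 tallest sites the heights were close. The site chr2:152631907-152632106 had 4.87 RPM in WT and 4.42 RPM in GRdim, with midpoints 1 bp apart and a GRdim over WT ratio of 0.908 (0.641 to 1.28). The site chr3:9886751-9886950 had 3.99 and 5.07 RPM (ratio 1.27, 0.895 to 1.82), and chr1:84299425-84299624 had 3.58 and 4.35 RPM (ratio 1.22, 0.833 to 1.78). The most even of them was chr2:52784228-52784427, with 3.51 and 3.69 RPM (ratio 1.05, 0.707 to 1.56). The interval of each of these ratios included equal height. It was also included at chr8:129373876-129374075, with 2.91 and 3.95 RPM (ratio 1.36, 0.905 to 2.06), and at chr2:167474876-167475075, with 2.84 and 3.56 RPM (ratio 1.25, 0.822 to 1.92). An interval that includes 1 does not show that the 2 heights are the same, and these intervals still allow differences of up to 1.56-fold to 2.06-fold.

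The remaining pair among the 10 tallest owed its place to WT. On chr6:99125506-99125705 the peak reached 5.95 RPM (88 reads) in WT and 1.32 RPM (20 reads) in GRdim, 4.51-fold higher in WT (2.75 to 7.74), with midpoints 17 bp apart. This site ranked 5th among autosomal WT peaks and 343rd among autosomal GRdim peaks. On chr13:5614123-5614322 the heights were 4.87 RPM (72 reads) and 1.45 RPM (22 reads), 3.36-fold higher in WT (2.06 to 5.68), with midpoints 111 bp apart. A WT-only peak of 2.23 RPM stood 10.6 kb from the chromosome 13 site.

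A height of 3 RPM or more was reached by 20 shared sites in at least 1 library. Both libraries reached it at 7 of them, WT alone at 7 and GRdim alone at 6. At chr2:164280464-164280663 the heights stood at 3.11 RPM in WT and 3.10 RPM in GRdim, 46 and 47 reads, the most even of the 20. At 4 of the 7 sites past 3 RPM in WT alone the GRdim height was 2.11 RPM or more. One was chr4:59251570-59251769 with 3.31 and 2.90 RPM and another chr14:75089503-75089702 with 3.04 and 2.83 RPM. Those past 3 RPM in GRdim alone were at 2.10 RPM or more in WT, and none was near the WT floor. The lowest was chr15:6519101-6519300, at 2.10 RPM in WT against 3.49 RPM in GRdim (ratio 1.66, 1.05 to 2.69).

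**Figure D2:**
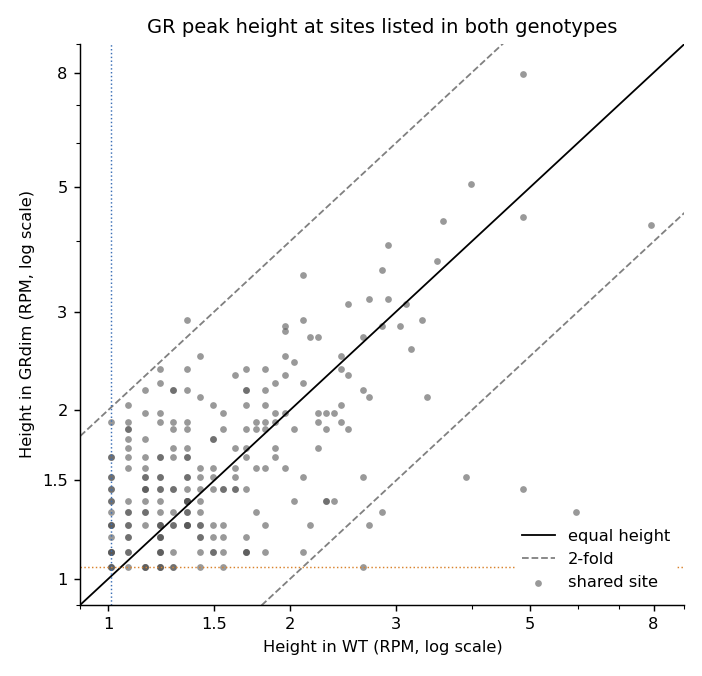
Height of each of the 241 shared sites in WT (x axis) and GRdim (y axis) in RPM, both on log scales, with the line of equal height, dashed lines at a 2-fold difference and dotted lines at the lowest listed heights of 1.01 RPM (WT) and 1.05 RPM (GRdim). Most points lie between the dashed lines, 6 lie below them toward WT and 1 above toward GRdim.

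Across all shared sites the balance lay close to even. The log2 ratio of GRdim over WT height had a median of 0.07, a 1.05-fold difference, with quartiles of -0.16 and 0.34 and an SD of 0.46 over sites. The exact binomial interval of the median was 0.03 to 0.15, over sites of the same 2 libraries, so it does not measure variation between libraries. The lowest listed height was 1.05 RPM in GRdim and 1.01 RPM in WT. Both lie less than 1 read step above 1 RPM, so they do not show that the lists were cut at different heights. The part of the floor in the median was not tested. GRdim had the greater height at 144 sites and WT at 97. At 13 sites the implied reads were equal, and these count toward WT throughout because its step per read is larger. At 140 sites (58.1%) the heights were within 1.25-fold of each other and at 196 (81.3%) within 1.5-fold. Heights at least 1.5-fold greater in GRdim were found at 27 sites, 11.2% of the set, and at least 1.5-fold greater in WT at 18 sites, 7.47%. Past 2-fold the order turned, with 6 sites higher in WT (2.49%) and 1 higher in GRdim (0.415%). The ratio thus had its longer tail toward WT, reaching -2.17 on the log2 scale against 1.10 toward GRdim.

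The 2-fold sites beyond the 10 tallest were lower. On chr17:26649569-26649768 the WT height was 3.92 RPM (58 reads) and the GRdim height 1.52 RPM (23 reads), 2.58-fold higher in WT (1.57 to 4.39). On chr1:80492968-80493167 the values were 2.64 and 1.05 RPM, the GRdim floor, 2.51-fold higher in WT (1.36 to 4.79) with midpoints 3 bp apart. On chr6:97399916-97400115 they were 2.70 and 1.25 RPM, 2.16-fold higher in WT (1.22 to 3.95). The sixth site, named because it too passed 2-fold, was chr9:77870063-77870262 with 2.84 and 1.32 RPM (2.15-fold, 1.24 to 3.87). All 6 sites that were 2-fold higher in WT stood at 1.52 RPM or less in GRdim, the median of the shared sites there.

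Toward GRdim, the widest ratio was on chr11:105984145-105984344, with 1.35 RPM (20 reads) in WT and 2.90 RPM (44 reads) in GRdim, 2.15-fold higher in GRdim (1.24 to 3.84). It was followed by chr1:39635370-39635569, with 1.22 and 2.37 RPM (1.94-fold, 1.08 to 3.65), and chr2:130758687-130758886, with 1.01 and 1.91 RPM (1.89-fold, 0.978 to 3.78). The last were chr11:3377472-3377671 (1.08 and 2.04 RPM, 1.89-fold, 1.00 to 3.70) and chr4:63005394-63005593 (1.15 and 2.17 RPM, 1.89-fold, 1.02 to 3.62). These 5 stood at 1.91 to 2.90 RPM in GRdim and at 1.35 RPM or less in WT. The 6 sites at least 2-fold higher in WT stood at 2.64 to 5.95 RPM in WT, so the 2 ranges overlap. The 3 widest ratios toward WT came with WT heights of 3.92 to 5.95 RPM.

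**Figure D3:**
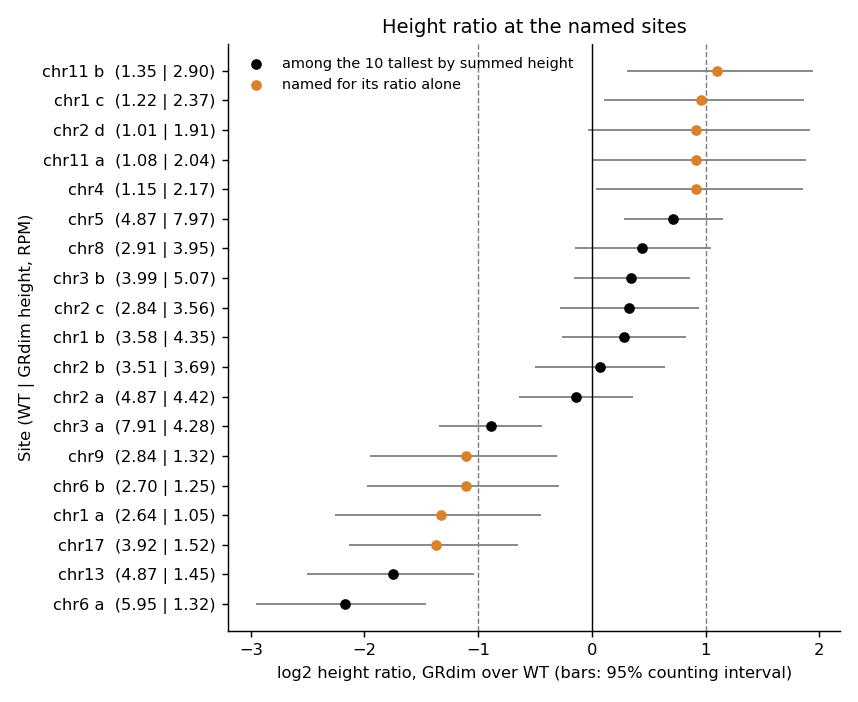
Log2 height ratio of GRdim over WT (x axis) with 95% counting intervals (bars) for the 10 tallest shared sites (black) and the further sites named for their ratio (orange), each labelled with its chromosome and its heights in RPM, WT first. Sites on the left are higher in WT, led by chromosome 6 at -2.17, and dashed lines mark 2-fold.

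The floor limits what a ratio can be. A site of 1.01 to 1.3 RPM in WT cannot be much lower in GRdim and still be listed, and 76 of the 94 such sites were higher in GRdim. Of the 53 sites at 2 RPM or more in WT, 36 were higher in WT. Sorted by the GRdim height instead, 46 of the 67 sites under 1.3 RPM were higher in WT, and 42 of the 55 sites at 2 RPM or more were higher in GRdim. The summed height gives both libraries equal weight. The lowest listed heights, 1.01 RPM in WT and 1.05 RPM in GRdim, still limit the 2 directions unequally in its lowest class. Over the classes of summed height the median log2 ratio was 0.06 under 2.5 RPM, 0.10 at 2.5 to 3 RPM and 0.08 at 3 to 4 RPM. It was -0.01 at 4 to 6 RPM and 0.07 at 6 RPM or more. The SD of the log2 ratio over sites was 0.23 in the lowest class and 0.87 in the highest, where 13 sites ranged from -2.17 to 0.71. The median absolute log2 ratio was 0.15 in the lowest class. It did not rise further over the classes above, at 0.32, 0.33, 0.31 and 0.33. Below 2.5 RPM no site differed by 1.5-fold, since the 2 floors permit no such ratio at these sums. The SD of the log2 ratio was 0.46 at the 188 sites within 50 bp and 0.47 at the other 53. A difference of 1.5-fold was passed by 38 of the close pairs (20.2%) and 7 of the others (13.2%), and 2-fold by 4 and 3. The close pairs were also taller, with a median summed height of 3.07 RPM against 2.67 RPM, so the floor bears on these 2 groups unequally.

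Chromosomes differed little in balance. Among the 14 chromosomes with at least 10 shared sites, the median log2 ratio ran from -0.10 on chromosome 9 to 0.28 on chromosome 1 and was above 0 on 11. On chromosome 1, 16 of 19 sites were higher in GRdim, although the strongest of its ratios, at chr1:80492968-80493167, went toward WT. On chromosome 11, 17 of 26 sites were higher in GRdim. Chromosome 6 carried 2 of the 6 sites 2-fold higher in WT, and its median was nevertheless -0.03, the ratio of a site with 19 reads in both libraries. The tail toward WT was thus made of single sites and not of whole chromosomes.

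**Figure D4:**
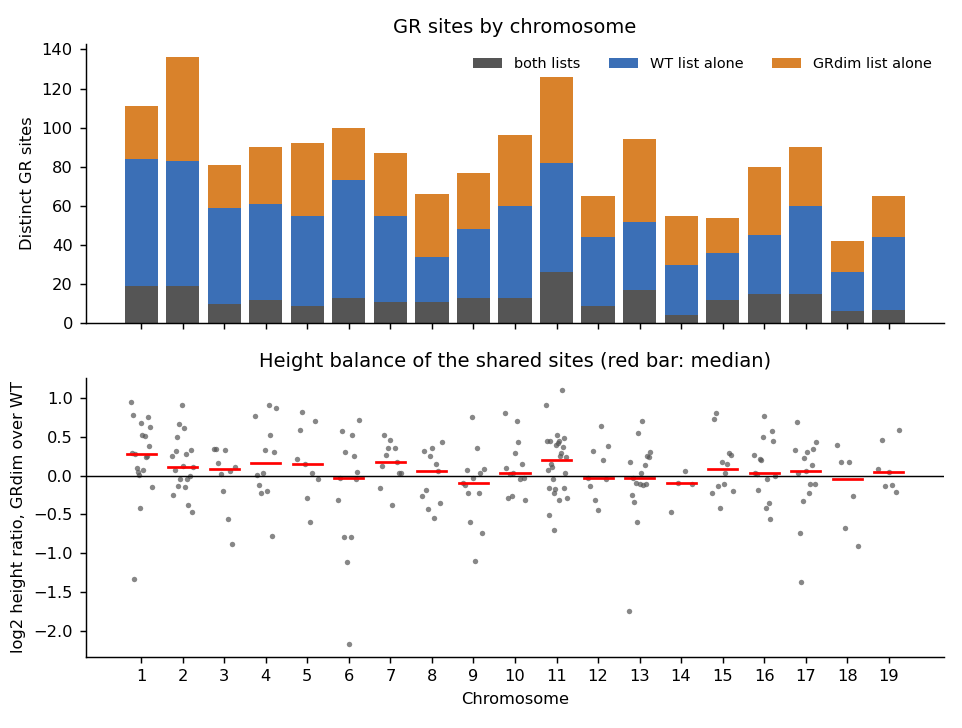
Top, the number of distinct GR sites on each autosome listed in both genotypes (grey), in WT alone (blue) or in GRdim alone (orange); bottom, the log2 height ratio of GRdim over WT at each shared site, with the median as a red bar. Shared sites range from 4 on chromosome 14 to 26 on chromosome 11, and the medians stay near 0 with chromosome 1 highest at 0.28.

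Most shared sites had no other shared site within 100 kb. A GR site of any kind lay within that distance of 112 of the 241 (46.5%). For peaks of the WT list alone this was 333 of 790 (42.2%), and for those of the GRdim list alone 235 of 576 (40.8%). A neighbour of the same kind within 100 kb was found for 37 shared, 206 WT-only and 126 GRdim-only sites, in sets of unlike size. Between the 222 neighbouring shared sites on a chromosome the gap had a median of 5.33 Mb (quartiles 1.41 and 13.6 Mb, range 451 bp to 78.4 Mb). Only 22 gaps (9.91%) were 100 kb or less, 11 were 20 kb or less and 1 was under 1 kb. Joined by gaps of at most 100 kb, 37 sites (15.4%) fell into 15 clusters and 204 stood single. There were 10 clusters of 2 sites, 4 of 3 and 1 of 5. Clustered sites had a median summed height of 3.34 RPM against 2.94 RPM for single ones, and the same median log2 ratio of 0.07.

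The closest neighbours were 451 bp apart on chromosome 19, at 59146024 to 59146223 (WT 1.82 RPM, GRdim 1.58 RPM) and 59146475 to 59146674 (1.01 and 1.52 RPM). Next were 2 sites 1.39 kb apart on chromosome 11, at 68271675 to 68271874 (1.42 and 1.58 RPM) and 68273065 to 68273264 (1.22 and 1.32 RPM). The third pair was 2.45 kb apart on chromosome 15, at 25758224 to 25758423 (1.42 and 2.5 RPM) and 25760671 to 25760870 (1.15 and 1.05 RPM). In each of these places both libraries resolved the same 2 peaks.

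The largest cluster was on chromosome 16, with 5 shared sites over 169 kb (95950638 to 96119775). Its heights from left to right were 2.70, 1.55, 1.42, 1.35 and 2.84 RPM in WT and 2.11, 1.05, 2.11, 1.85 and 2.83 RPM in GRdim. The left pair of sites leaned to WT, the next pair leaned to GRdim and the last was even. The sums over the cluster, 9.86 RPM in WT and 9.95 RPM in GRdim, were nearly equal (ratio 1.01, 0.798 to 1.28). Single peaks of 1 list in the same stretch were low, 1.01 RPM in WT and 1.12 RPM in GRdim.

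The cluster on chromosome 17 at 26646422 to 26708658 leaned to WT at all of its 3 sites, with 2.30, 3.92 and 1.49 RPM in WT and 1.38, 1.52 and 1.19 RPM in GRdim. The sums of 7.71 and 4.09 RPM gave 1.89-fold more in WT (1.37 to 2.61). Of the 15 clusters only this one had an interval that left out equal height, and the interval is not adjusted for the 15 looked at. The WT list also held a peak of 7.10 RPM at 26672226 to 26672425, in the gap before the right-hand shared site, with no GRdim peak within 20 kb of it. A GRdim-only peak of 1.58 RPM stood 2.14 kb from the middle shared site. The stretch thus held the tallest autosomal WT-only peak as well as 3 shared sites with a greater listed height in WT. Taken singly, only the middle site had a WT over GRdim interval that left out equal height (1.57 to 4.39). Equal height was included at the left site (0.936 to 3.01) and at the right site (0.642 to 2.48).

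A second cluster on chromosome 17, at 18008793 to 18037984, leaned the other way at all 3 sites. Heights were 1.15, 1.22 and 2.43 RPM in WT and 1.45, 1.98 and 2.5 RPM in GRdim, and the ratio of the sums was 1.24 (0.896 to 1.71). The cluster on chromosome 11 at 117807848 to 117853392 had 1.28, 1.76 and 1.69 RPM in WT and 1.65, 1.58 and 2.37 RPM in GRdim (ratio of sums 1.18, 0.853 to 1.65). That on chromosome 19 at 59096133 to 59146674 had 1.22, 1.82 and 1.01 RPM in WT and 1.12, 1.58 and 1.52 RPM in GRdim (ratio 1.04, 0.720 to 1.505). Both were mixed in direction.

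**Figure D5:**
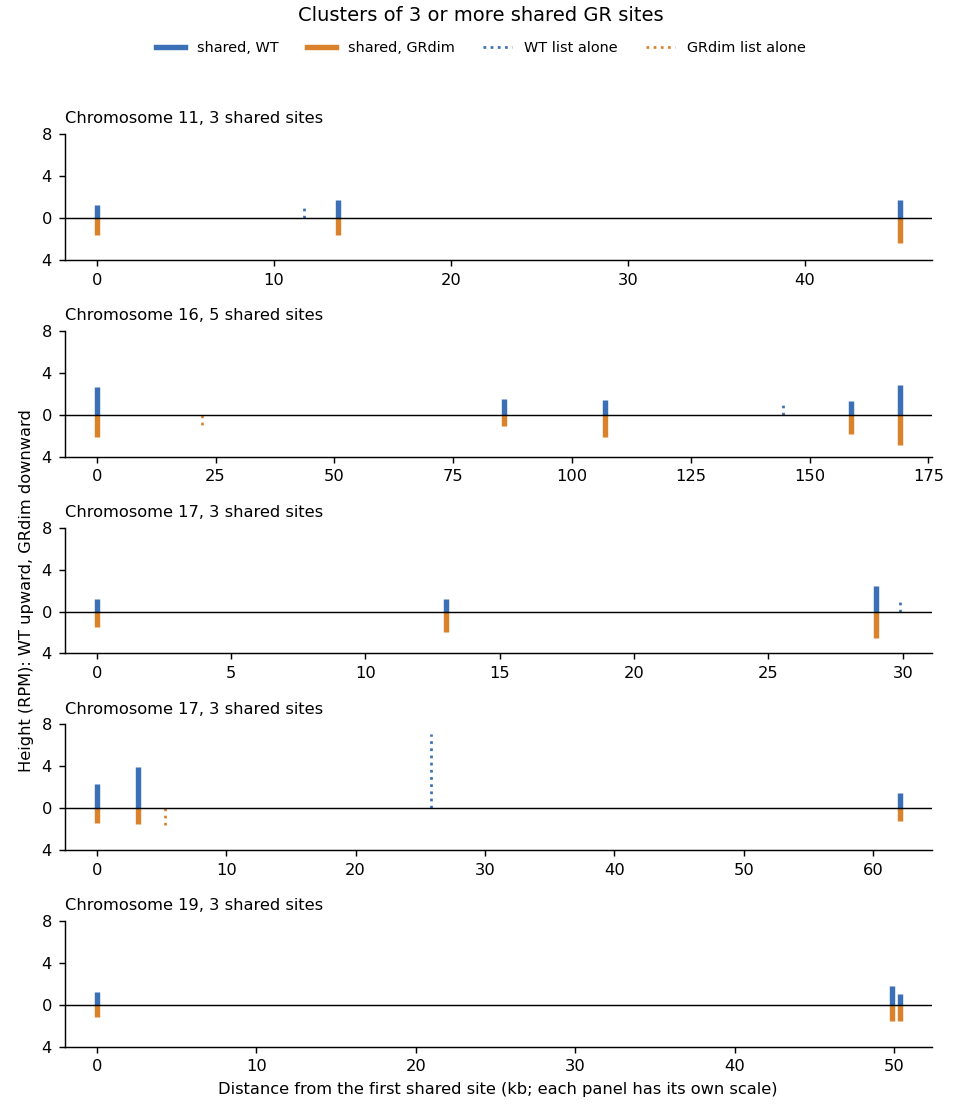
The 5 clusters of 3 or more shared sites, with the distance from the first shared site in kb on the x axis and the height in RPM on the y axis, WT upward and GRdim downward; solid bars are shared sites and dotted bars are peaks of 1 list within 20 kb of the cluster. The lower of the 2 chromosome 17 panels shows taller WT bars at all 3 shared sites and the WT-only peak of 7.10 RPM between them.

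Over all shared sites, near neighbours leaned the same way about as often as far ones. Over the 22 neighbours with a gap of up to 100 kb, the log2 ratios differed by 0.54 in the median (quartiles 0.26 and 0.76), and 11 of the 22 leaned the same way. Over the 200 neighbours farther apart the median difference was 0.39 (quartiles 0.22 and 0.67), and 97 leaned the same way. These are descriptions of sites that share the same 2 libraries.

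Peaks of 1 list were found near some shared sites. Another GR site of any kind lay within 20 kb of 53 shared sites, 22.0% (exact interval 16.9 to 27.8). For autosomal peaks of the WT list alone it was 164 of 790, 20.8% (18.0 to 23.8), and for those of the GRdim list alone 116 of 576, 20.1% (16.9 to 23.7). Shared sites were therefore about as often accompanied as sites of 1 list. A WT-only peak stood within 20 kb of 26 shared sites and a GRdim-only peak within 20 kb of 13, and no shared site had both. The WT list also has more autosomal peaks of its own, 790 against 576.

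The neighbours of 1 list were mostly no taller than the shared site itself. Of the 27 WT-only peaks within 20 kb of a shared site, 8 were taller than the WT height of their nearest shared site, and of the 12 GRdim-only peaks 3 were taller than its GRdim height. The tallest WT-only one reached 3.31 RPM on chr4:144857543-144857742, 6.24 kb from a shared site at 1.22 RPM in WT and at 2.24 RPM in GRdim. The tallest GRdim-only one reached 2.97 RPM on chr2:152614634-152614833, 17.3 kb from the evenly balanced tall site on chr2:152631907-152632106. Medians of the balance differed little with the company of a shared site. The log2 ratio was 0.14 beside a WT-only peak (26 sites), 0.02 beside a GRdim-only peak (13 sites) and 0.06 with neither (202 sites), as medians, set against an SD of 0.46 over all shared sites.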

How the data were processed

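The submitters' processing notes name Bowtie and the mouse build mm9. For peak calling, thresholds and the use of input, the tool and settings were not given in the sources used here. The heights deposited by the authors are taken as RPM from the peak names, since no header states the unit. All 1898 listed peaks are 200 bp wide. Positions are printed 1-based. Chromosome 1 peaks reach 196821671, beyond the last gene of the GRCm38 table at 195291439, so no gene was assigned.

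The value of 1 read was the largest step from 0.03 to 0.3 RPM that made at least 99% of heights whole within 0.1 read (1073 of 1076 in WT and 822 of 822 in GRdim). Smaller steps, such as fractions of it, would also give whole reads. Ratio intervals are exact binomial intervals of these reads scaled by the steps. With 1 library per genotype, no test was made. Code was tested on simulated data.

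The text names the 10 tallest sites by summed height, the 5 widest ratios in each direction, clusters of 3 or more sites, the 3 closest neighbours and the 5 pairs on either side of 200 bp. The sites and rules were chosen with earlier results of these data known. Tools were Python 3.11.15 with pandas 2.3.3, scipy 1.17.1, numpy 2.4.6 and matplotlib 3.10.9.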

Additional observations from a re-analysis of the deposited data

How the results depend on the processing

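Of 27 alternative values, 18 stayed within 1.5 times the reported count or inside the exact binomial interval of the reported median or share, and 9 moved. With both heights at or above 1.5 RPM, 75 shared sites were left. The median log2 ratio was 0.014 with summed heights of 4 RPM or more. A limit of 1.5-fold gave 45 sites and a limit of 3-fold gave 2 in place of 7, and 4 of the sites past 2-fold had midpoints under 50 bp apart. Clusters held 21 sites with a gap of 20 kb. A neighbouring peak of either list was found for 11.6% of shared sites within 10 kb, 37.8% within 50 kb and 46.5% within 100 kb. Most of these follow from asking for more or less; for the median ratio, the cause was not tested. The number of sites went from 187 with midpoints under 50 bp to 251 under 1000 bp. Genes and sequence motifs near the sites were not run, since no mm9 reference was used. No paired analysis was possible because there is 1 library for each genotype and no test.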
